A study of Mus musculus with 9 samples.

Results

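The Frizzled receptors, Fzd1 to Fzd10, are the seven-pass membrane proteins that bind secreted Wnt ligands. Members were taken as every probe set whose single annotated gene symbol was one of the 10 Frizzled names. This gave 21 probe sets for 9 genes, out of 25581 single-symbol probe sets for 14440 genes, and Fzd5 was not analysed here. A Frizzled binds Wnt through an extracellular cysteine-rich domain and passes the signal to Dishevelled. With the co-receptors Lrp5 and Lrp6 this stabilises beta-catenin, which acts with TCF and LEF factors in the nucleus, and with other partners such as Ror2 it feeds planar cell polarity signalling. In skeletal muscle, Wnt signals through Frizzled receptors act in the formation of muscle precursors and in regeneration.

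The series measured total RNA of 5 tumours from mice labelled MYF-5 CRE/SSM2, a SYT-SSX mouse model of synovial sarcoma, and of 4 wild-type skeletal muscles, on 1 Affymetrix array each. The tumours are named CC23, CC17-B, CC17-A, SSM5 or SSM4. Of the muscles, 2 were from the hind limb (the second labelled hind limb 2), 1 was intercostal and 1 was from the forelimb. Array values are given through the tumours in the order of those names, and through the muscles as hind limb, intercostal, forelimb, hind limb 2. No treatment, strain, age or sex was given. Cre in this model is driven from Myf5, a gene of muscle precursors, and the tumours were compared with whole muscle and not with those precursors. Genotype and tissue therefore differ together and cannot be told apart. The labels do not say whether samples came from separate animals, and CC17-A and CC17-B may share a source, so p-values measure the spread between these samples, which may be technical.

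Levels are the authors' MAS5 intensities, scaled here to a common trimmed mean per array and called scaled intensity. They compare arrays for 1 probe set and do not rank different genes. The floor of an array, below which a value was treated as near background, was its 40th percentile and lay between 96.4 and 137.4. Where a gene has several probe sets, the one brightest on average stands for it. A log2 fold change is the mean log2(scaled intensity + 16) of tumours minus that of muscles, and a difference counts as called where limma gave an adjusted p under 0.05, by Benjamini-Hochberg over all 10646 genes tested. Of those genes 48.1% were called, 30.1% higher and 18.0% lower in tumours, and their median log2 fold change was 0.23. The share of calls that were higher was 62.6%, against 75.2% with centring on 64 genes of the ribosome and proteasome and 52.4% with arrays centred on the median.

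The labelled tissues differed in their defining genes. All 10 myofibre markers tested were lower in tumours, with summed levels of 588 to 103230 in tumours and 431116 to 628156 in muscles. All 5 epithelial markers were higher, with sums of 2485 to 13571 in tumours and 344 to 712 in muscles, as were all 4 proliferation markers. Of these markers, Epcam, Dsp and Bub1b were below the floor in every muscle and were tested through the tumours alone. Of 6 satellite cell and myoblast markers 1 was higher and 3 were lower, and Myf5 and Chrdl2 were below the floor in every tumour. Of the other lists, 2 of 3 Schwann cell markers were lower, 0 of 4 adipocyte markers were called in limma, with 2 at an unadjusted p under 0.05, 2 fibroblast markers of 5 were higher and 1 lower, and 2 of 5 macrophage markers were higher.

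In tumours 6 of the 9 Frizzled genes were higher than in muscle (Fzd1, Fzd2, Fzd3, Fzd6, Fzd8 and Fzd10), 2 were lower (Fzd4 and Fzd9) and Fzd7 was not called. The background was 30.1% of all tested genes called higher and 18.0% called lower. Tumour and muscle arrays did not overlap for 5 of the 9 genes, where 40.5% of all genes showed no overlap. The members' median log2 fold change was 0.86. Fzd3 passed the filter on dim values through the tumours alone, and Fzd9 through the muscles and 1 tumour, so these counts describe the family and support nothing by themselves. In these bulk samples, fewer cells of a type and less RNA per cell cannot be told apart.

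Fzd1, Fzd4 and Fzd9, the genes with the largest fold change of the family and the lower calls, had promoter entries in RefSeq (build GRCm38.p6), and their windows are shown for that reason. Each runs from 250 bases before to 50 after the annotated start, with matches on either strand in capitals. CTTTGA (or TCAAAG), the TCF/LEF core, marks the nuclear factors at the end of the Wnt pathway, and GGGCGG (or CCGCCC) is the GC box bound by Sp factors. CATTGT (or ACAATG), the SOX core, was also searched. No match of one motif overlapped a match of another, and some neighbouring GC boxes of Fzd4 overlap each other by a base.
Fzd1, chr5:4758167-4758466, minus strand: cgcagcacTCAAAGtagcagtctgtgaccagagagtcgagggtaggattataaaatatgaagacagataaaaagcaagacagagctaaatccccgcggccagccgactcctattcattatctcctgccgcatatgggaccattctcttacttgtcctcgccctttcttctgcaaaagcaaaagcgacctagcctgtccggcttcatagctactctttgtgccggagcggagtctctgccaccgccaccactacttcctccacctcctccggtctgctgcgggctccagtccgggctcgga
Fzd4, chr7:89404116-89404415, plus strand: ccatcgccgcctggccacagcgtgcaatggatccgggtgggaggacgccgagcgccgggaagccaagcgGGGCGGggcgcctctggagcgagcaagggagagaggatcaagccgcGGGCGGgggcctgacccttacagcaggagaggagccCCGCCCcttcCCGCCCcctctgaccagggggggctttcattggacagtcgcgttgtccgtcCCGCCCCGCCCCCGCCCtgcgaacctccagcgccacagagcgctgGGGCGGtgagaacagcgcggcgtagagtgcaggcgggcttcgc
Fzd9, chr5:135250998-135251297, minus strand: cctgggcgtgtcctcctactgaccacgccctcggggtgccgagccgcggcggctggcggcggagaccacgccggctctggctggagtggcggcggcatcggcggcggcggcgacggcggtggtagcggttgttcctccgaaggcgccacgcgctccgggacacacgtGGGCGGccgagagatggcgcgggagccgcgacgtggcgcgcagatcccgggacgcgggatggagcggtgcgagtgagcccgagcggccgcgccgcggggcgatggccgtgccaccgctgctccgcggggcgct

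The Fzd1 window held 1 TCF/LEF core, at position -242 from the start, and no GC box. The Fzd4 window held 8 GC boxes and the Fzd9 window held 1, at position -83, and neither held a TCF/LEF core. No SOX core was in any of the 3. Of 32851 promoter windows of the same length, 16% held the TCF/LEF core, 35.7% the GC box and 12.6% the SOX core. GC content was 54.0% for Fzd1, 72.7% for Fzd4 and 78.0% for Fzd9, against a median of 52.7% over all windows. CpG pairs numbered 16 in Fzd1, 32 in Fzd4 and 53 in Fzd9, where the median window had 7. Of the other measured genes, Fzd10, called higher, had 77.7% GC, 45 CpG pairs and 1 GC box, and Fzd7, not called, had 66.7% GC, 24 CpG pairs and 7 GC boxes. Neither held a TCF/LEF or SOX core. A match describes letters in this window only.

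**Figure D1:**
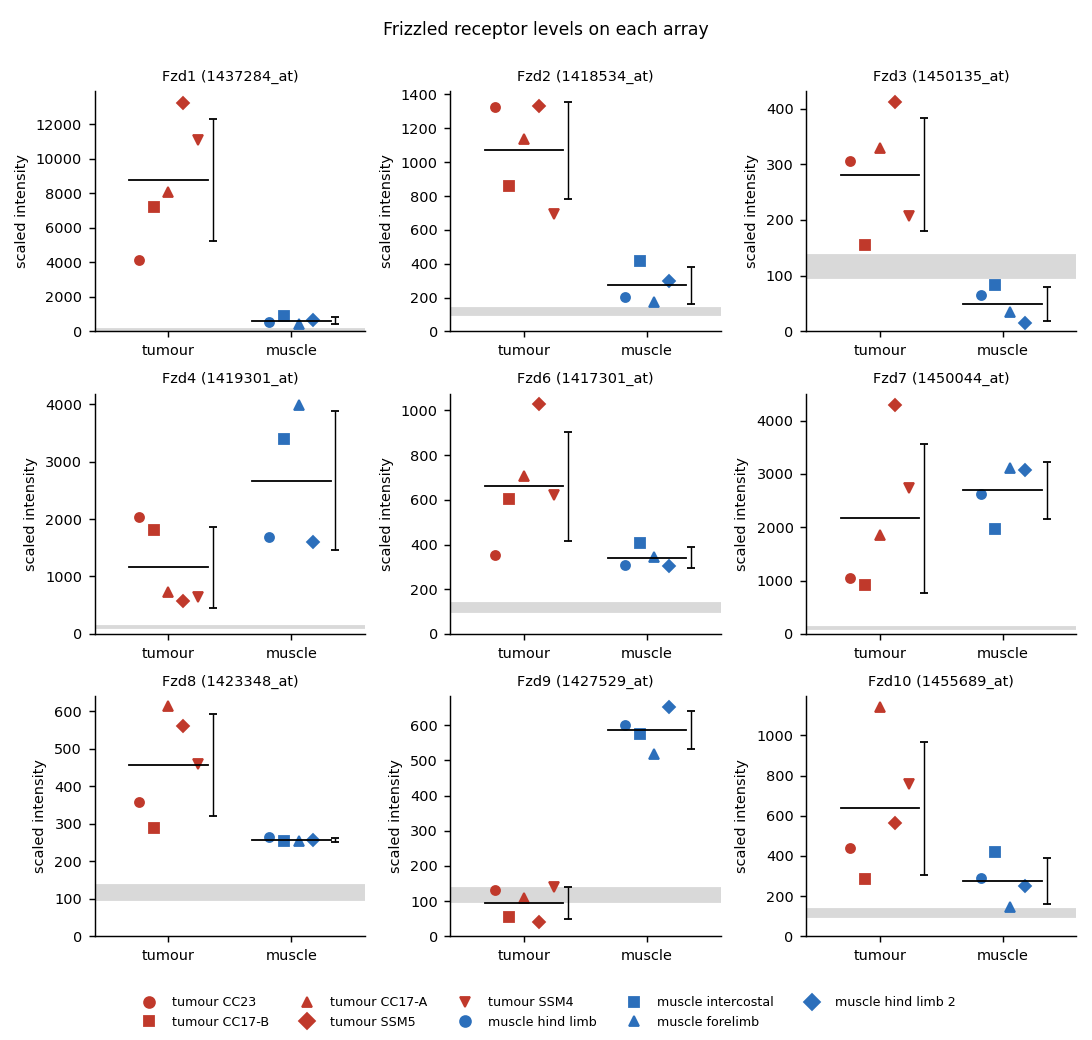
Scaled intensity (linear axes) of the representing probe set of each of the 9 Frizzled genes, in 5 tumours (red, left) and 4 muscles (blue, right), 1 symbol per array. Lines are means, bars are ± SD, and the grey band is the range of array floors; Fzd1 in tumours lies far above muscle, Fzd9 in tumours lies near or below the band, and Fzd7 overlaps.

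Fzd1, Fzd2 and Fzd7 form a group of closely related receptors. Fzd1 (probe set 1437284_at), a receptor able to signal through beta-catenin, had the largest difference of the family. It read 4142 in CC23, 7211 in CC17-B, 8094 in CC17-A, 13251 in SSM5 and 11102 in SSM4, against 519 in hind limb, 905 in intercostal, 412 in forelimb and 666 in hind limb 2. The lowest tumour lay well above the highest muscle, and both SSM tumours lay above all 3 CC tumours. Tumours averaged 8760.0 ± 3529 and muscles 626 ± 213 (SD, n = 5 and 4), a log2 fold change of 3.73 ± 0.34 (SE) and a 13.2-fold ratio (limma adjusted p = 1.5e-05). An exact two-sided permutation test of the log2 means gave p = 0.00794, the smallest that the 126 splits can give. Its second probe set, 1422985_at, read 197 to 955 in tumours and 13.6 to 103 in muscles. All 4 muscles were below the floor there, so it was at least 4.34-fold higher in tumours (limma adjusted p = 0.0018 over probe sets).

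Fzd2 (1418534_at), a receptor able to bind Wnt5a, read 1328, 857, 1138, 1330.5 and 693 in the 5 tumours, against 206, 416, 174 and 295 in the 4 muscles. Every tumour exceeded every muscle, and intercostal was the highest muscle. The means were 1069 ± 286 in tumours and 273 ± 108 in muscles (SD, n = 5 and 4), a log2 fold change of 1.94 ± 0.29 (SE, limma adjusted p = 0.00031, exact permutation p = 0.00794). Probe set 1418533_s_at gave a log2 fold change of 1.99, and 1418532_at gave 3.46 with 1 of 4 muscles above the floor. All 3 Fzd2 probe sets were called higher over probe sets.

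Fzd7 (1450044_at), which in mouse is a Wnt7a receptor on satellite cells, read 1053, 909.9, 1852, 4290.5 and 2737 in the 5 tumours, against 2621, 1959.5, 3111 and 3069.9 in the 4 muscles. SSM5 was above every muscle, CC23, CC17-B and CC17-A were below every muscle, and SSM4 lay among them. The means were 2168.5 ± 1392 in tumours and 2690.3 ± 535 in muscles (SD, n = 5 and 4). The log2 fold change was -0.52 ± 0.41 (SE), with a 95% interval of -1.43 to 0.39 and a limma adjusted p of 0.323. The highest tumour was 4.72 times the lowest. The 2 SSM tumours averaged 3514 and the 3 CC tumours 1272, and this difference was not tested. Summed fibroblast markers were 100423 and 65151 in SSM5 and SSM4, and 25593 to 36856 in the CC tumours. Among the CC tumours, CC17-A had the highest Fzd7 level (1852) and the lowest fibroblast sum (25593). The part of fibroblast content in the difference between SSM and CC tumours was not tested.

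Fzd8 (1423348_at), a receptor close to Fzd5, read 359, 288, 614, 561 and 459 in the 5 tumours, against 266, 254, 255 and 258 in the 4 muscles. All 5 tumours exceeded all 4 muscles, and the muscles lay within a narrow span. The means were 456 ± 136 in tumours and 258 ± 5.26 in muscles (SD, n = 5 and 4), a log2 fold change of 0.73 ± 0.25 (SE, limma adjusted p = 0.0290, exact permutation p = 0.0159). Its second probe set, 1445815_at, had a log2 fold change of 1.46 and 2 muscles above the floor (limma adjusted p = 0.0285). The groups overlapped there, as CC17-B (140) lay below hind limb (150) and intercostal (163). With CC17-A and CC17-B as a block, Fzd8 on 1423348_at was not called (limma adjusted p = 0.0677, range 0.0066 to 0.139). With CC17-A and CC17-B averaged instead, it kept its call.

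Fzd3 and Fzd6 act in planar cell polarity in mouse, Fzd3 in axon guidance and Fzd6 in hair patterning. Fzd3 (1450135_at) read 306, 155, 328, 411 and 206 in the 5 tumours, against 65.6, 83.7, 35.4 and 15.2 in the 4 muscles. Every tumour was above the floor and every muscle below it. Fzd3 was therefore at least 2.38-fold higher in tumours, with measured means of 281 ± 101 and 49.98 ± 30.6 (SD, n = 5 and 4) in tumours and muscles and a limma adjusted p of 0.00118. Probe set 1421157_at was at least 1.15-fold higher with 4 tumours above the floor. Probe set 1449730_s_at read 303, 306, 313, 145 and 106 in the same tumour order, against 57.4, 110.3, 107 and 125 in muscles, and SSM4 lay below 3 of the 4 muscles. Its log2 fold change was 1.04 (limma adjusted p = 0.0484 over probe sets), below the 2.23 of 1450135_at. This probe set represented Fzd3 without SSM5, where the log2 fold change was 1.17, and without SSM4, where it was 1.27. As the mean of its probe sets, Fzd3 had 1.43.

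Fzd6 (1417301_at) read 351, 603, 705, 1028 and 620 in the 5 tumours, against 311, 406, 344 and 302 in the 4 muscles. CC23 overlapped the muscles and the other 4 tumours lay above them. The means were 661 ± 244 in tumours and 341 ± 47.4 in muscles (SD, n = 5 and 4), a log2 fold change of 0.86 ± 0.28 (SE, limma adjusted p = 0.0256, exact permutation p = 0.0238).

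Fzd4, Fzd9 and Fzd10 form a further related group. Fzd4 is the receptor through which norrin acts in retinal and brain vessels. Its probe set 1419301_at read 2040.1, 1810.03, 728, 575 and 643 in the 5 tumours, against 1685, 3399, 3986 and 1609 in the 4 muscles. CC17-A, SSM5 and SSM4 were below every muscle, and CC23 and CC17-B lay above both hind limb muscles. The means were 1159 ± 706 in tumours and 2670 ± 1206 in muscles (SD, n = 5 and 4), a log2 fold change of -1.29 ± 0.44 (SE, limma adjusted p = 0.0325). The exact permutation p was 0.0794, above the threshold. Probe set 1434756_at read 439, 827, 397, 725 and 1043 in the same tumour order, against 1206, 1668, 2424 and 1343 in muscles, with no overlap and a limma adjusted p of 0.0072. The 2 probe sets gave the same log2 fold change of -1.29 but ordered the tumours differently.

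Of 9 endothelial markers 5 were lower in tumours, where 18.0% of all genes were, and 4 (Pecam1, Emcn, Cdh5 and Kdr) were not called. Their sum was 2409 to 4392 in tumours and 5391 to 6643 in muscles. The summed pericyte markers were 4259 to 8779 in tumours and 11664 to 18963 in muscles, and 2 of 6 were lower. Abcc9 alone made up 3671 to 11152 of the muscle sums. CC23 and CC17-B had the highest 1419301_at values among tumours. Their endothelial sums were 3550 and 4392, against 2838 in CC17-A, 2409 in SSM5 and 3416 in SSM4. CC23 and CC17-B also had the highest pericyte sums among tumours, 8391 and 8779, against 4259 to 4957 in the other 3. Rgs5 made up 3075 and 4895 of these 2 pericyte sums and 131 to 703 of the others, so the pericyte order rests largely on Rgs5. Probe set 1434756_at did not follow this order, since SSM4 read highest (1043) with a pericyte sum of 4957 and CC23 read 439 with 8391. The part of vessel cells in the Fzd4 difference was not tested.

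Fzd9 (1427529_at), whose human counterpart lies in the region deleted in Williams syndrome, had 1 probe set. It read 133, 56.4, 109.9, 39.5 and 139 in the 5 tumours, against 599, 575, 519 and 651 in the 4 muscles. All tumours were below all muscles, and SSM4 alone of the tumours was above the floor. The means were 95.6 ± 45.2 in tumours and 586 ± 54.9 in muscles (SD, n = 5 and 4), a log2 fold change of -2.54 ± 0.34 (SE, limma adjusted p = 0.00014, exact permutation p = 0.00794), and the size of this ratio is limited by the background in tumours. Myofibre markers differed in the same direction, with sums of 47446, 21239, 4499.6, 588 and 103230 in the 5 tumours, against at least 431116 in every muscle. With 4 of 5 tumours below the floor, Fzd9 has no order among tumours to set beside these sums. The part of fibre content in the Fzd9 difference was not tested.

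Fzd10 (1455689_at), whose human counterpart is known as a cell-surface antigen of synovial sarcoma, read 440.0, 284, 1142, 564 and 759.8 in the 5 tumours, against 291, 421, 144 and 249 in the 4 muscles. CC17-B was below 2 muscles and the other 4 tumours were above all muscles. The means were 638 ± 331 in tumours and 276 ± 114 in muscles (SD, n = 5 and 4), a log2 fold change of 1.10 ± 0.40 (SE, limma adjusted p = 0.0407, exact permutation p = 0.0476). The tumours CC17-A and CC17-B, which share the CC17 in their names, read 1142 and 284. With these 2 as a block at a preset correlation of 0.5, Fzd10 was not called (limma adjusted p = 0.0987, range 0.0087 to 0.125). With the 2 averaged instead, Fzd10 kept its call.

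**Figure D2:**
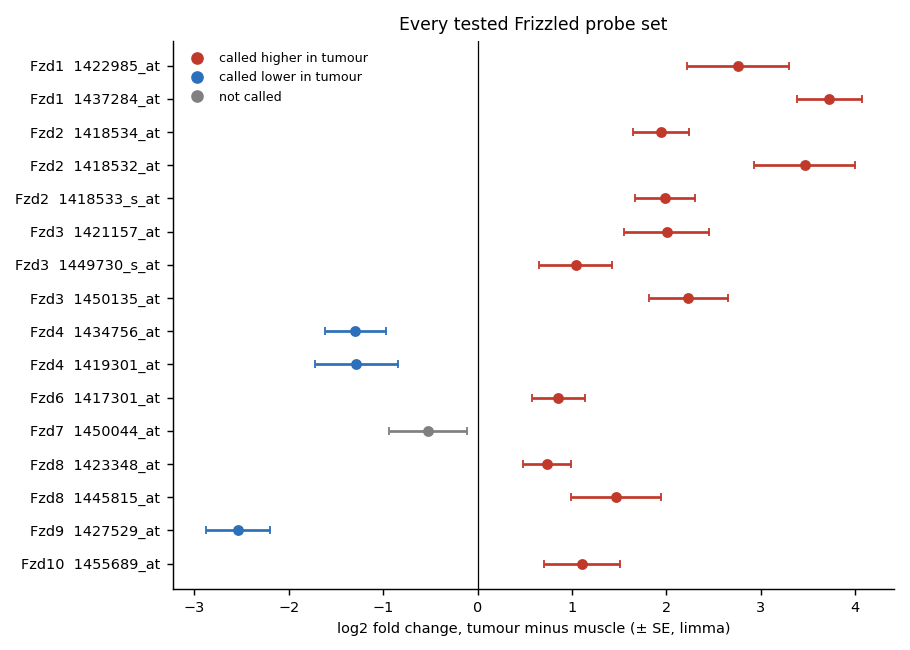
Log2 fold change, tumour minus muscle, with ± SE from limma for the 16 tested Frizzled probe sets, in family order. Of these, 12 were called higher (red), 3 lower (blue) and the Fzd7 probe set was not called (grey), with the probe sets of 1 gene lying on the same side of 0.

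Among the 16 tested probe sets, 12 were called higher and 3 lower, where 25.6% and 16.6% of all probe sets tested were. The groups did not overlap for 10 of the 16, against 36.2% of all. Fzd1 1422985_at, Fzd3 1421157_at and Fzd3 1450135_at passed the filter on dim values through the tumours alone. Several genes also count more than once, so these counts support nothing by themselves. The 5 probe sets left untested, 1 each of Fzd3, Fzd4, Fzd6, Fzd7 and Fzd10, read 2.76 to 536.6 over all arrays. The highest was Fzd4 1449416_at in intercostal muscle. The other probe sets of Fzd7 and Fzd10 were below the floor on every array, so each of those genes rests on 1 probe set. The second Fzd6 probe set, 1448662_at, was above the floor in SSM4 alone, so Fzd6 also rests on 1 tested probe set.

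**Figure D3:**
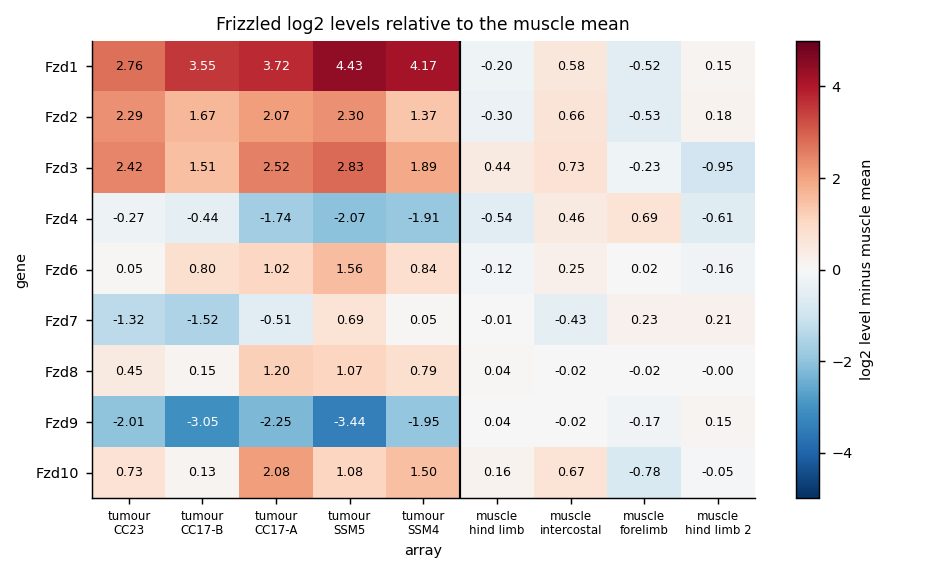
Log2 level of each Frizzled gene minus its mean over the 4 muscles, one row per gene and one column per array, tumours left of the line and muscles right. Fzd1 runs from 2.76 to 4.43 in tumours, Fzd9 from -3.44 to -1.95, and Fzd4 and Fzd7 differ between tumours.

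Across the tumours the receptors did not move as a block. Both SSM tumours lay above all CC tumours for Fzd1 and Fzd7, and below all of them for Fzd4 on 1419301_at, where the SSM mean was 609 and the CC mean 1526. Fzd4 on 1434756_at did not separate them. Fzd1 on 1422985_at again had both SSM tumours above, and Fzd3 on 1449730_s_at had both below all CC tumours, while the representing probe sets of Fzd2, Fzd3, Fzd6, Fzd8, Fzd9 and Fzd10 did not separate the names. The untested Fzd6 1448662_at had both SSM tumours above, with SSM4 alone of the tumours above the floor. The share of all genes that separated the SSM and CC names was not counted, so these orders only describe the arrays. CC17-B was the lowest tumour on the representing probe sets of Fzd3, Fzd7, Fzd8 and Fzd10. On Fzd3 1449730_s_at it read 306, and SSM4 was lowest at 106.

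The Fzd1, Fzd2 and Fzd9 differences were called in every one of the 27, 27 and 25 alternative settings that gave a value. Their log2 fold changes ran from 3.24 to 4.08, from 1.71 to 2.46 and from -2.76 to -2.07. Fzd3 was called in 24 of 25, and missed under quantile normalization, where 1449730_s_at represented it (log2 fold change 0.91, limma adjusted p = 0.0520, range 0.00064 to 0.0520). The other called members depended on single samples or on scaling. With values as deposited, Fzd6, Fzd8 and Fzd10 had limma adjusted p of 0.102, 0.0921 and 0.0575, and their signs did not change. Fzd7 was called in 0 of 27 settings, with limma adjusted p from 0.0713 to 0.986.

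**Figure D4:**
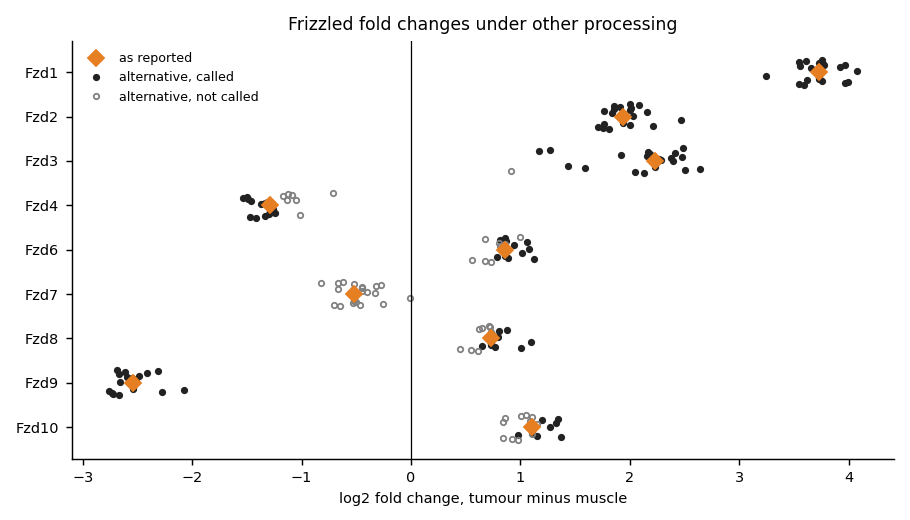
Log2 fold change, tumour minus muscle, of each Frizzled gene as reported (orange diamonds) and under each alternative setting (filled where called, open where not; vertical offsets only separate points). Fzd1, Fzd2 and Fzd9 are filled throughout, Fzd7 is open throughout, and no gene crosses 0.

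Fzd4 lost its call in 5 of 9 fits that left out 1 array. The limma adjusted p was 0.0850 without intercostal, 0.101 without forelimb, 0.0713 without CC17-A, 0.0670 without SSM5 and 0.0643 without SSM4, in a range over all settings of 0.0114 to 0.322. Fzd6 lost its call without hind limb (0.0652), forelimb (0.0546), hind limb 2 (0.0683) or SSM5 (0.0519), in a range of 0.0015 to 0.129. Fzd8 lost its call without each muscle in turn and without CC17-A, SSM5 or SSM4 (limma adjusted p 0.0519 to 0.0660), in a range of 0.0066 to 0.139. Fzd10 lost its call without hind limb, forelimb, hind limb 2, CC17-A, SSM5 or SSM4 (limma adjusted p 0.0611 to 0.125), in a range of 0.0087 to 0.125. None of these fits turned a sign.

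Relative to the median of all genes, the log2 differences under 5 scalings of the arrays were widest for Fzd3, at 0.82 to 2.02, where quantile normalization changed its probe set. They were 3.49 to 3.87 for Fzd1, 1.62 to 1.71 for Fzd2 and -2.82 to -2.77 for Fzd9. Those of Fzd6 were 0.46 to 0.62, of Fzd8 0.36 to 0.50, of Fzd10 0.75 to 0.87, of Fzd4 -1.52 to -1.42 and of Fzd7 -0.76 to -0.56. The median of all genes was 0.05 with median centring, 0.09 with quantile normalization, 0.11 as deposited and 0.50 with ribosomal and proteasome centring.

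For the 6 called members with a log2 fold change of at least 1 in size, the genes with the most similar pattern were found by the root mean square difference, over the 9 arrays, in log2 level relative to the muscle mean, among genes tested. For Fzd1 they were Gbx2 (0.31), Triqk (0.34) and Crybg1 (0.40), and for Fzd2 they were Prdm11 (0.24), Npdc1 (0.26) and Mnx1 (0.27). For Fzd3 they were Actr5, Shtn1 and Arhgef19 (0.34 to 0.35), and for Fzd4 Ndufaf4, Egln3 and Lao1 (0.28 to 0.38). For Fzd9 they were Cdc34, Cfap52 and Dok7 (0.27 to 0.30), and for Fzd10 Nipal2, Pfkl and Dvl2 (0.33 to 0.34).

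The other genes of the pathway were counted from lists. Rspo2, Ptk7 and Celsr1 passed the filter on dim values through the tumours alone. The counts of the R-spondin, co-receptor and planar polarity lists therefore support nothing by themselves. Of 9 tested Wnt ligands, 4 were higher in tumours and 1, Wnt4, lower, where 30.1% and 18.0% of all genes were. Their median log2 fold change was 0.33, near the 0.23 of all genes. Wnt5a, a ligand of non-canonical signalling, averaged 5647 ± 1205 in tumours and 333 ± 122 in muscles (SD, n = 5 and 4), a log2 fold change of 4.07 (limma adjusted p = 4.3e-06). Wnt6 had 2.33, Wnt16 2.15 and Wnt10a 1.68. Wnt16 was 1.35 with a pseudocount of 64, and Wnt10a was 0.98 without the intercostal and forelimb muscles. In that muscle setting Wnt16 was 1.55 and lost its call (limma adjusted p = 0.0941). For Wnt16 only 1 of 4 muscles, hind limb (126), was above the floor, and it lay above tumour SSM5 (112). A further 10 ligands did not pass the filter, and among them Ndp, which encodes norrin, read 26.6 to 193 in tumours and 8.27 to 102 in muscles.

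The list of co-receptors and other Wnt receptors also held Smo, which is not a Wnt receptor. Of the 8 tested genes of this list, 6, Smo among them, were higher and 2 lower, against 30.1% and 18.0% of all genes. The median log2 fold change of the 8, with Smo included, was 2.01. Ror2, a receptor for Wnt5a, had a log2 fold change of 3.37 and its relative Ror1 had 2.90, which were 2.22 and 1.63 as the mean of their probe sets. For Ror2 only 1 of 4 muscles was above the floor, and a pseudocount of 64 gave 2.61. Smo, a Frizzled-class protein that transduces Hedgehog signals, averaged 3600.2 ± 548 in tumours and 398 ± 255 in muscles (SD, n = 5 and 4). Ptk7, a co-receptor in planar polarity, was at least 2.16-fold higher because all 4 muscles were below the floor. Tumour CC17-B, at 96.6 for Ptk7, was also below its floor of 101.5. Tspan12, a partner of Fzd4 in norrin signalling, and Kremen1 were the lower members, and Tspan12 had a log2 fold change of -1.70 (limma adjusted p = 0.0233). Without intercostal muscle, where Tspan12 read 2096, that value was -1.14 and the limma adjusted p was 0.0570, in a range of 0.0100 to 0.161. Lrp5 was below the floor on every array, and Lrp6, Ryk and Rnf43 were not analysed here.

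Of 7 tested genes of Frizzled turnover and R-spondin signalling, 6 were higher (30.1% of all genes), 0 were lower (18.0% of all genes) and Lgr4 was not called, with a median log2 fold change of 1.90. At an unadjusted p under 0.05, 0 were lower too. Lgr5 had a log2 fold change of 3.56 and Lgr6 3.32, both receptors for R-spondins, which were 2.29 and 1.74 as the mean of all their probe sets, and Rspo2 was at least 3.08-fold higher. Znrf3, a ligase that removes Frizzled from the membrane, had a log2 fold change of 0.68 (limma adjusted p = 0.0210), and without forelimb muscle the adjusted p was 0.0733, in a range of 0.0073 to 0.882. As the mean of its probe sets, Znrf3 had a log2 fold change of 0.07.

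Of 9 secreted antagonists, 3 were higher and 1 lower, shares near the 30.1% and 18.0% of all genes, with a median log2 fold change of 0.59. Sfrp2 had a log2 fold change of 2.99 and Dkk3 2.25. Sfrp5, a secreted protein with a Frizzled-like domain, was the lower one at -1.15, and its call was lost without hind limb, forelimb, hind limb 2 or CC17-B (limma adjusted p 0.0560 to 0.0935, range 0.0032 to 0.223). Sfrp1 was not called (1.26, limma adjusted p = 0.135), and its log2 fold change was 0.64 without SSM4.

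Downstream of Frizzled, Dvl1, a Dishevelled gene, was lower, with means of 3276 ± 1503 in tumours and 8536 ± 2767 in muscles (SD, n = 5 and 4), a log2 fold change of -1.40. Dvl2 had 0.89 (limma adjusted p = 0.0524) and Dvl3 was below the floor on every array. Ctnnb1, the gene of beta-catenin, averaged 19937 ± 3085 in tumours and 9865 ± 546 in muscles (SD, n = 5 and 4). Axin2, a known target of the pathway, had a log2 fold change of 1.95. Of 10 genes of the Dishevelled and destruction complex list, 3 were higher and 2 lower, near the 30.1% and 18.0% of all genes, with a median log2 fold change of 0.27. Of 7 nuclear effectors and targets, 5 were higher, against 30.1% of all genes, and Lef1 had a log2 fold change of 3.82 and Tcf7l1 2.51. Of 11 planar cell polarity genes, 5 were higher, against the same 30.1%, and Celsr1 was at least 3.09-fold higher and Prickle2 had 2.61. The members named in these lists were taken by size of change among the called members, or by a fixed set of names, and Wnt4, Kremen1 and Lgr4 were named after their values were seen.

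**Figure D5:**
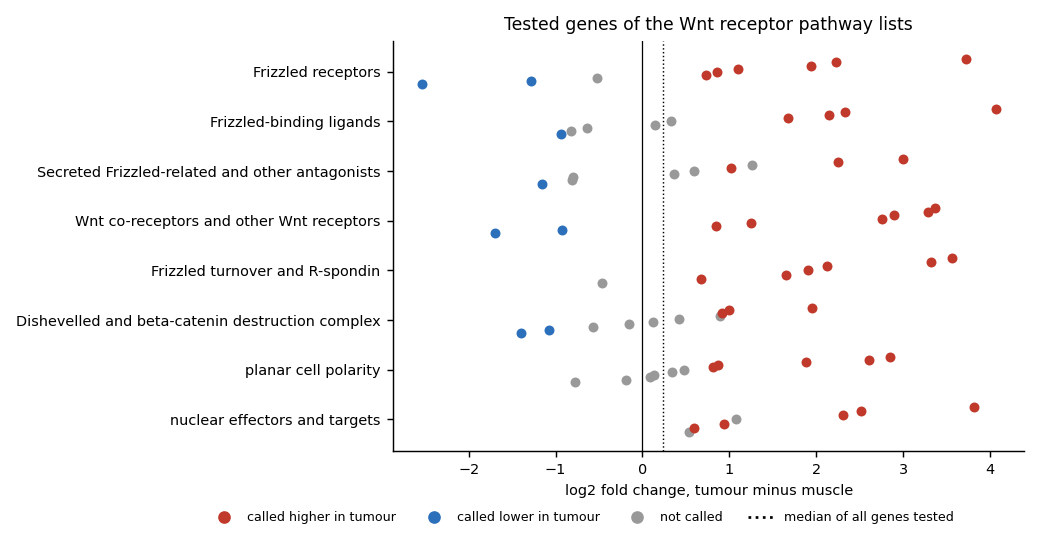
Log2 fold change, tumour minus muscle, of each tested gene of the Frizzled family and of 7 Wnt pathway lists, one point per gene (red called higher, blue called lower, grey not called). The dotted line is the median of all genes tested, 0.23; the co-receptor and R-spondin lists hold no uncalled gene except Lgr4.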

How the data were processed

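Total RNA of 5 tumours and 4 wild-type muscles was measured on Affymetrix arrays. MAS5 (no version named) is the authors' software per the submitters' processing notes, and the deposited values are probe set intensities on a linear scale. Detection calls, scaling target and genome build are not given in the sources used here. Of 30508 probe sets, 7 controls, 496 with several symbols and 4424 with none were left out. Because the 2% trimmed means ran from 429.7 to 609.7, arrays were scaled to a common one (factors 0.909 to 1.29). Genes below the floor on more than 5 of the 9 arrays were not tested.

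Tumours and muscles were compared on log2(scaled intensity + 16) with limma 3.58.1 in R 4.3.3 (lmFit, two-sided, eBayes with trend), adjusted by Benjamini-Hochberg over all genes, or over all 17433 probe sets where a probe set is named. The script was tested on simulated data. Where every array of a group was below the floor, the fold is a bound ("at least") against the floor. Precision is limited by having 9 arrays. The members and lists were chosen with earlier results of these data known. Named genes were all members, up to 4 called members of each list by size of change, fixed names (such as Lrp5, Smo, Wnt5a, Lef1), and the 3 genes most like each called member with a log2 fold change of at least 1 in size. Alternatives changed scaling, pseudocount, filter, probe set choice, moderation, CC17 pairing and single arrays. Protein sequences were not used here, and for Fzd2, Fzd3 and Fzd6 no promoter entry was used.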

Additional observations from a re-analysis of the deposited data

Results flagged for a closer look

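Single arrays stood apart from their group in 11 of the 106 sets of values tested for the Frizzled probe sets and the named pathway genes, where the gap to the nearest array was large for the group's range. Chance alone sets some such groups apart at this threshold, at about 5% of groups. For Fzd2, tumour CC17-A read 1154 on 1418532_at and 1421 on 1418533_s_at, each the highest tumour, and intercostal muscle read 147 and 341 on them, each the highest muscle. For Fzd10, tumour CC17-B read 32.8 on 1440182_at, the highest of a probe set below the floor everywhere. Intercostal muscle also stood apart for Dvl1 (4408, the lowest muscle), Lgr6 (364, the highest) and Tspan12 (2096, the highest). Tumour CC23 read 4230.2 for Lgr6, tumour SSM4 read 5337 for Sfrp1, and hind limb muscle read 126 for Wnt16, each the highest of its group. Intercostal muscle also had the highest summed adipocyte markers, 126745, against 29189 to 36537 in the other muscles, and the part of that content in these values was not tested.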

How the results depend on the processing

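No Frizzled fold change changed sign in 238 values over 27 settings. Of these, 197 kept their side of the threshold and 41 lost the call. Frizzled genes called higher numbered 6, and 2 with quantile normalization. They numbered 3 with values as deposited, with median centring or without the intercostal and forelimb muscles. Leaving out 1 array gave 3 to 6 genes. With every probe set its own feature, the count was 12 probe sets. Frizzled genes called lower numbered 2, and 1 with ribosomal and proteasome centring, with the floor on all arrays or with CC17-A and CC17-B as a block at a preset correlation of 0.5 (Fzd4, adjusted p = 0.0504 in limma), and 0 without the intercostal and forelimb muscles (limma), where Fzd4 had an adjusted p of 0.322 and Fzd9 did not pass the filter. Leaving out 1 array gave 1 to 2. Over all genes 1917 were called lower, and 1493 to 1957 when 1 array was left out. With every probe set its own feature, 2888 probe sets were called lower. The preset correlation was chosen after seeing the data, as a fit with an estimated correlation was not run because 1 pair gives none. With CC17-A and CC17-B averaged, a planned setting, every Frizzled call was kept. The ribosomal and proteasome centring used 64 genes, a set narrowed after a first run. In the lists, higher counts ran from 3 to 5 in the destruction complex and planar polarity lists and 3 to 6 in the nuclear list. They ran from 4 to 6 in the co-receptor list, 5 to 6 in the R-spondin list and 2 to 3 in the antagonist list. The ligand count stayed at 4. Lower counts ran from 0 to 2 in the co-receptor and antagonist lists, 0 to 1 in the ligand and R-spondin lists and 1 to 2 in the destruction complex, over 13 settings. Among other named pathway genes, 61 of 826 values lost a call, 6 gained one and 0 changed sign. No paired analysis was possible because replicate numbers only name the samples and pair none of them. Values near the floor, as for Fzd9 in tumours and for Fzd3, Lef1 and Ror2 in muscles, have a ratio limited by signal over background.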
